A study of Mus musculus with 6 samples.

Results

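The angiotensin and endothelin system genes considered here were Agt, Ace, Enpep and Agtr1a of the renin-angiotensin system and Edn1, Ece1 and Ednra of the endothelin system. They were found in the array annotation as every probe set that names exactly 1 gene, with that gene in the set, which gave 7 probe sets for 6 of the 7 genes, of 45037 probe sets and 17097 genes in all. Ece1 had 2 probe sets, a bright and a dim one, and the others had 1 each. Ednra, the endothelin A receptor gene, was not analysed here. The 2 groups were male BALB/c mice of no stated genotype change, aged 10 weeks when grouped. The hydrogen group (3 mice) was kept for 3 weeks in an atmosphere of 2% hydrogen gas and 98% air. The control group (3 mice) was reared in normal air for the same time. RNA of whole lung from each mouse went on its own Affymetrix oligonucleotide array, and all values below are log2 signals per probe set.

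Both systems make small peptides that contract blood vessels. Angiotensinogen, the product of Agt, is cut by renin to angiotensin I, which angiotensin-converting enzyme (Ace) turns into angiotensin II, and the capillary endothelium of the lung is a major site of that step. Angiotensin II acts on the type 1 receptor, which Agtr1a encodes, and glutamyl aminopeptidase (Enpep) shortens it further. Endothelin-1, the product of Edn1, is released from its precursor by endothelin-converting enzymes such as that of Ece1 and acts on smooth muscle and endothelium through receptors encoded by Ednra and Ednrb.

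Agtr1a was the gene of the set that fell in the hydrogen group, and its change was the largest of the 7 probe sets. Agt and the dim Ece1 probe set rose by smaller amounts. In RNA of whole lung, fewer cells of a type and less RNA per cell cannot be told apart. Ace, Enpep, Edn1 and the bright Ece1 probe set had small positive differences that did not pass the threshold (limma with Benjamini-Hochberg adjustment over all probe sets, adjusted p under 0.05). Thus 2 of 7 probe sets were higher and 1 of 7 was lower, where 24.3% of all probe sets were higher and 22.8% were lower, so these counts are close to the background and are no result about the set. The groups did not overlap for 6 of the 7, where 57.3% of all probe sets had groups without overlap. The median log2 fold change, hydrogen minus control, was 0.20 over the 7 probe sets and 0.02 over all probe sets.

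**Figure D1:**
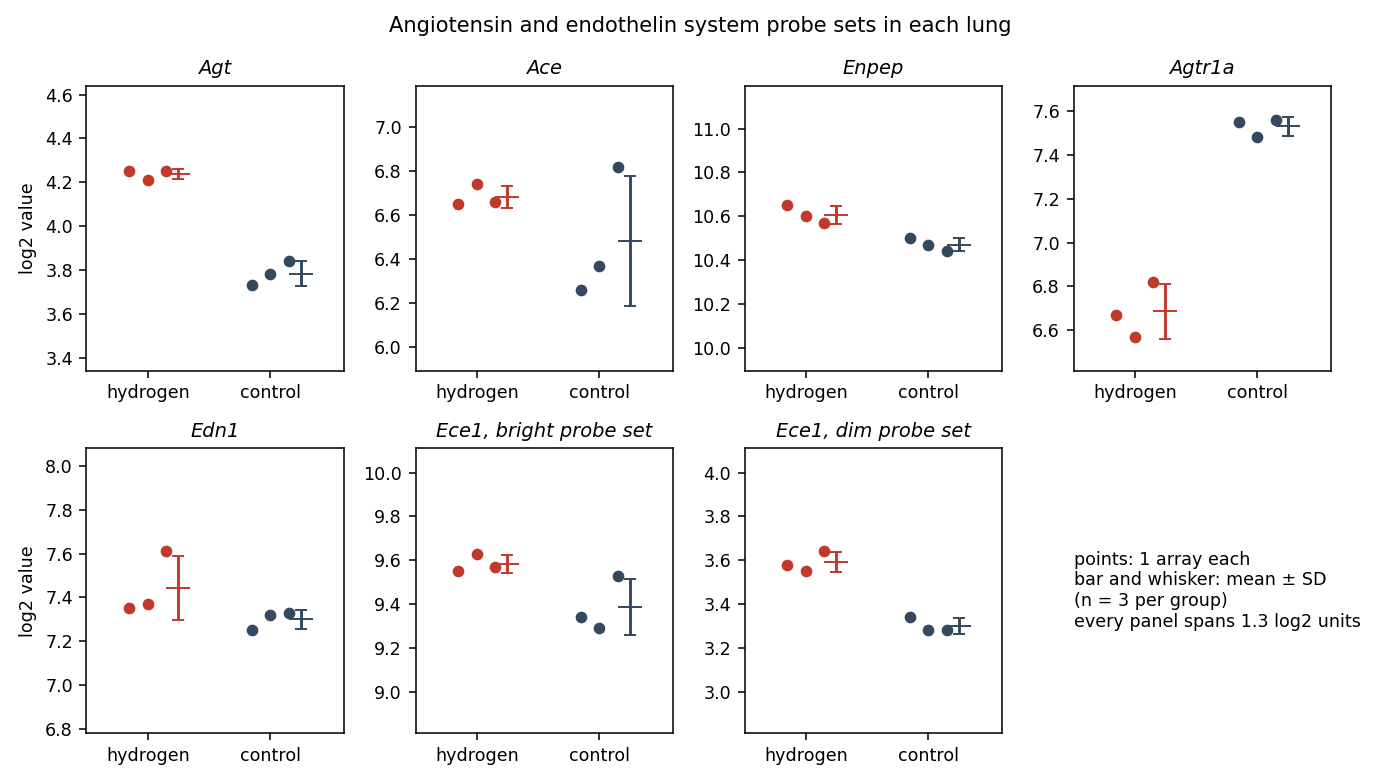
Each panel plots the log2 value of 1 probe set on each of 3 hydrogen and 3 control arrays, with the mean ± SD beside the points. Every panel spans the same range of log2 units. Agtr1a has the widest gap between the groups, and in the panel of Ace the third control array lies above all hydrogen arrays.

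The arrays themselves differed in ways that touch every value. The SD over probe sets was 1.80 to 1.81 on hydrogen arrays and 1.90 to 1.92 on control arrays, and dim probe sets tended to be higher and bright ones lower in the hydrogen group. In 10 equal classes of brightness the median log2 fold change ran from 0.15 in the fourth class to -0.23 in the ninth. Among 85 control probe sets without a mouse target, 15 were higher and 27 lower. When each array was centred on its median, 6377 of all probe sets were higher and 14571 lower, against 10956 and 10257 on the deposited values. The labels give no batch, and a batch cannot be told apart from the groups. An exact two-sided permutation test of 3 against 3 arrays cannot give a p below 0.1, so single probe sets were tested with limma. Sftpc, the surfactant protein C gene of alveolar type 2 cells, marked the tissue as lung at 13.17 ± 0.02 in hydrogen lungs and 13.15 ± 0.01 in control lungs (SD, n = 3 each).

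The sequence before the start of the genes is shown for Agt and Ece1, which had a probe set that rose, to let their promoters be compared. RefSeq sequences of GRCm38.p6 covered 6 of the 7 genes, all but Agtr1a, in 10 windows. Each window is the 250 bases before an annotated start, 5′ to 3′ on the gene's strand, with any TATAAA on either strand in capitals. For Agt the window is chr8:124569707-124569956 on the minus strand, and for Ece1 it is the one at its farthest upstream start, chr4:137861987-137862236 on the plus strand.
Agt: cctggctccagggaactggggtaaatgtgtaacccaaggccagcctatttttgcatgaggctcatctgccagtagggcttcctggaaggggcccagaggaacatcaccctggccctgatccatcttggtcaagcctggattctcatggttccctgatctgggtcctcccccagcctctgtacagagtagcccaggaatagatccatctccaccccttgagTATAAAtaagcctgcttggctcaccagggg
Ece1: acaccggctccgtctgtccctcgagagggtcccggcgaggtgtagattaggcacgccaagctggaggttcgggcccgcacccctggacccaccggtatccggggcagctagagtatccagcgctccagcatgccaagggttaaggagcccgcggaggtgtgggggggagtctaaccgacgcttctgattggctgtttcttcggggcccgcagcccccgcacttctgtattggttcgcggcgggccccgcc
The motif TATAAA lay in the Agt window with its first base 30 bases before the start, and none of the Ece1 windows held it. The Agt window had 55.6% G and C bases and the Ece1 window 66.8%. Of 32851 such windows, 12.4% held TATAAA on either strand, and 3 of the 10 windows of the set did, those of Agt, Enpep and 1 of Ace. A match describes the letters only, and the arrays do not say which start was used.

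Among the peptide precursors, Agt rose at a low level of signal. The probe set measured 4.25, 4.21 and 4.25 in hydrogen lungs, against 3.73, 3.78 and 3.84 in control lungs. All hydrogen values lay above all control values, by at least 0.37, but both groups lay below the median of all probe sets. Hydrogen minus control gave a log2 fold change of 0.45 (SE 0.05, 95% interval 0.33 to 0.58, limma adjusted p = 0.000628), a ratio of 1.37. Probe sets of like brightness had a median change of 0.14, which leaves 0.32 for Agt above that median. Agt kept its call under all 14 alternatives that gave it a value, with log2 fold changes of 0.33 to 0.48. Being dim, it would be left out by a filter at the median probe set.

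Edn1, the endothelin-1 precursor, did not pass the threshold. It measured 7.35, 7.37 and 7.61 in hydrogen lungs, against 7.25, 7.32 and 7.33 in control lungs. The groups were 0.02 apart, and the third hydrogen array stood above all others. Its log2 fold change was 0.14 (SE 0.08, 95% interval -0.03 to 0.32, limma adjusted p = 0.159). Without hydrogen replicate 3 it was 0.06. Bright probe sets of its class had a median of -0.23. A second quantile normalisation gave Edn1 0.37 and cyclic loess gave it 0.34, and both passed (limma adjusted p = 0.00699 and 0.00966).

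The processing enzymes showed small positive differences. Ace, which also breaks down bradykinin, measured 6.65, 6.74 and 6.66 in hydrogen lungs, against 6.26, 6.37 and 6.82 in control lungs. The third control array was the highest of all 6, so the groups overlapped. Between the means lay a log2 fold change of 0.20 (SE 0.13, 95% interval -0.10 to 0.50, limma adjusted p = 0.232), which allows an increase of up to 1.41-fold. Without control replicate 3 it was 0.37 (limma adjusted p = 0.005), so leaving out that single array changed the call.

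Enpep, the aminopeptidase that acts on angiotensin II, was among the brightest of the set. It measured 10.65, 10.60 and 10.57 in hydrogen lungs, against 10.50, 10.47 and 10.44 in control lungs. The groups did not overlap, with 0.07 between them. Enpep had a log2 fold change of 0.14 (SE 0.05, 95% interval 0.02 to 0.26, limma adjusted p = 0.0631). The interval, which is not adjusted for the number of probe sets, lies above 0 while the adjusted p misses the threshold. It passed after quantile normalisation (0.22, limma adjusted p = 0.0127) and cyclic loess (0.23, limma adjusted p = 0.012).

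Ece1 was read by 2 probe sets that differed in brightness and moved in the same direction. The bright one measured 9.55, 9.63 and 9.57 in hydrogen lungs, against 9.34, 9.29 and 9.53 in control lungs. The third control array was again the highest control, 0.02 below the lowest hydrogen array. This gave a log2 fold change of 0.20 (SE 0.07, 95% interval 0.03 to 0.36, limma adjusted p = 0.0522). That narrowly misses the threshold. It passed under 7 of 15 alternatives, with 0.27 (limma adjusted p = 0.0116) without control replicate 3.

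The dim Ece1 probe set measured 3.58, 3.55 and 3.64 in hydrogen lungs, against 3.34, 3.28 and 3.28 in control lungs. Its groups were 0.21 apart. The log2 fold change was 0.29 (SE 0.05, limma adjusted p = 0.00349), with a median of 0.09 over probe sets of like brightness. It lay dimmer than all but 11.3% of probe sets, so this call rests on low signal.

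Agtr1a, the type 1 angiotensin receptor gene, fell. It measured 6.67, 6.57 and 6.82 in hydrogen lungs, against 7.55, 7.48 and 7.56 in control lungs. The highest hydrogen array lay 0.66 below the lowest control array, a gap wider than the range within either group. The means were 6.69 ± 0.13 in hydrogen lungs and 7.53 ± 0.04 in control lungs (SD, n = 3 each). The log2 fold change was -0.84 (SE 0.07, 95% interval -1.01 to -0.68, limma adjusted p = 0.000265), so the signal fell by 44.3%. Probe sets of like brightness had a median of -0.23, which leaves -0.61. Of 17097 genes, 1.51% moved at least as far in either direction, and 204 genes fell at least as far. The call held under all 15 alternatives, with log2 fold changes of -0.93 to -0.63.

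**Figure D2:**
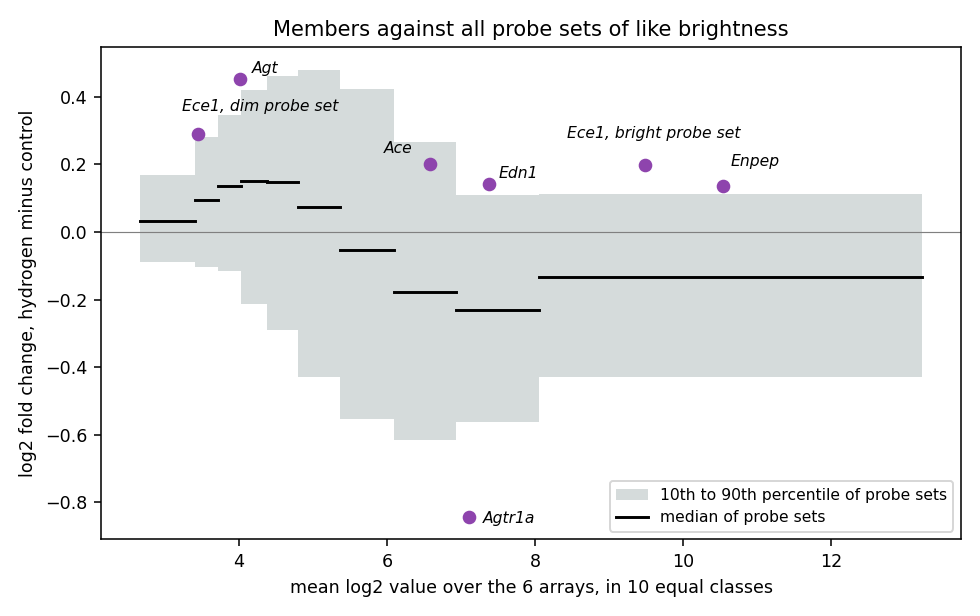
The horizontal axis is the mean log2 value over the 6 arrays and the vertical axis the log2 fold change, hydrogen minus control. Grey boxes show the 10th to 90th percentile and black lines the median of all probe sets in 10 equal classes of brightness, and purple points the 7 probe sets of the set. Agtr1a lies below the grey box of its class. Agt, Edn1, Enpep and both Ece1 probe sets lie above the boxes of theirs, and Ace lies inside its box.

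Relative to the median of their brightness class, the other 6 probe sets had differences of 0.20 (dim Ece1) to 0.38 (Ace). The number of probe sets of the set that were higher depended on the normalisation. With the arrays quantile normalised again it was 6, and by cyclic loess 5, where Ace missed (0.36, limma adjusted p = 0.0644), against 2 on the deposited values. The log2 fold change of each of these 6 probe sets was positive under every alternative that gave it a value, and that of Agtr1a was negative under every alternative.

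**Figure D3:**
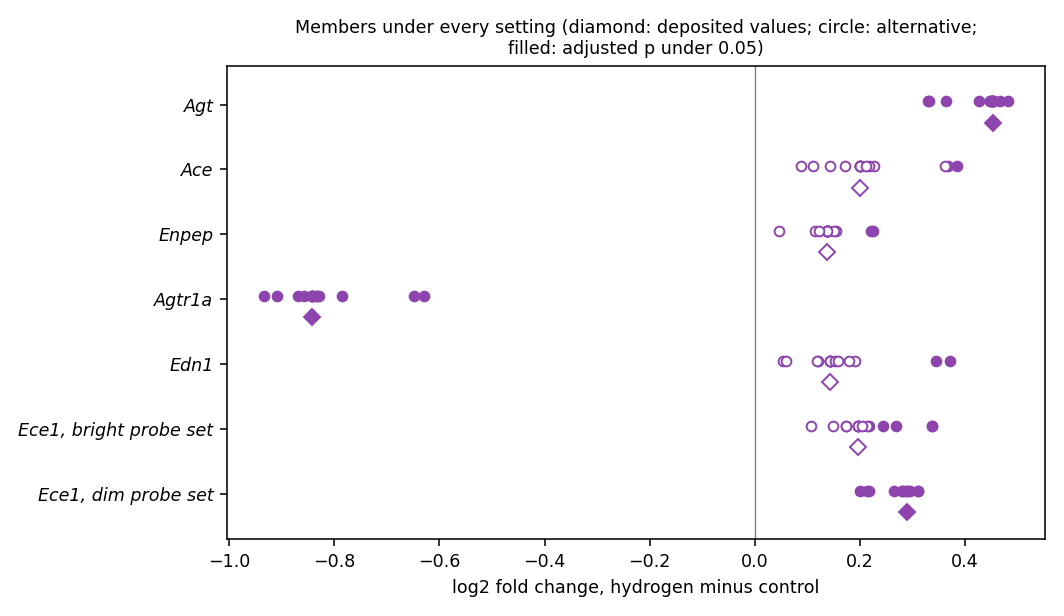
The horizontal axis is the log2 fold change, hydrogen minus control, of each probe set of the set. Diamonds are the deposited values and circles the alternatives, and filled symbols have an adjusted p under 0.05. Agtr1a runs from -0.93 to -0.63 and every other symbol lies above 0.

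The other genes of the renin-angiotensin system moved in both directions. Of 20 listed, 16 were measured, of which 6 were higher and 2 lower (median log2 fold change 0.11). Over all genes, each by its brightest probe set, 25.5% were higher and 25.9% lower, with a median of 0.01. With the arrays quantile normalised again the list had a median of 0.01, with 7 higher and 0 lower. Leaving out single arrays gave 3 to 5 higher, with 3 without replicate 1 or 2 of either group. No listed receptor of the angiotensin peptides other than Agtr1a passed, and all were dim. Agtr1b, the second type 1 receptor gene of mice, had a log2 fold change of 0.11 (limma adjusted p = 0.129) at 4.33 ± 0.03 in hydrogen lungs and 4.23 ± 0.04 in control lungs (SD, n = 3 each). Agtr2, the type 2 receptor gene, had -0.03 (limma adjusted p = 0.696), and Mas1, which encodes a receptor for angiotensin fragments, had 0.04 (limma adjusted p = 0.578).

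Agtrap encodes a protein that binds the type 1 receptor and promotes its internalisation. It measured 7.08, 7.17 and 7.04 in hydrogen lungs, against 6.68, 6.84 and 6.88 in control lungs. Agtrap thus rose (log2 fold change 0.30, SE 0.07, limma adjusted p = 0.00939), opposite to Agtr1a, although a second probe set had 0.09 (limma adjusted p = 0.429). Thop1, a peptidase that degrades angiotensin I and bradykinin, rose by 0.58 (SE 0.12, limma adjusted p = 0.00491), and its second probe set rose by 0.24. Cathepsin G (Ctsg, 0.30), cathepsin D (Ctsd, 0.23), prolyl endopeptidase (Prep, 0.19) and the prorenin receptor gene Atp6ap2 (0.16) were the others that rose. The other Atp6ap2 probe sets had 0.13 and -0.09, and their mean with the brightest was 0.07 (limma adjusted p = 0.229). Leaving out single arrays ended the calls of Ctsd, Prep and Atp6ap2. The aminopeptidase gene Rnpep (-0.22) and the neurolysin gene Nln (-0.22) fell, near the median of -0.18 of their brightness class, and neither passed after quantile normalisation (-0.05 each).

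Of 6 other endothelin genes measured, 4 were higher, none was lower and 2 did not pass, where 25.5% of all genes were higher and, by brightness class, 24.1% to 42.1% of probe sets in classes 3 to 7, where these 4 lay (median log2 fold change 0.39, and 0.30 after cyclic loess, where 4 were higher too). Ece2, a second converting enzyme, measured 4.96, 5.11 and 4.87 in hydrogen lungs, against 4.55, 4.48 and 4.59 in control lungs. Its log2 fold change was 0.44 (SE 0.07, limma adjusted p = 0.00201). Ecel1, a related peptidase, had 0.41 (SE 0.06, limma adjusted p = 0.00108). The ligand genes Edn2 (0.38) and Edn3 (0.43) rose as well, while a second Edn3 probe set had 0.04 (limma adjusted p = 0.645). Edn2 lay below the median probe set in both groups, and Ece2 near it. Ednrb, the endothelin B receptor gene of endothelium and smooth muscle, measured 8.69, 8.67 and 8.59 in hydrogen lungs, against 8.72, 8.53 and 8.74 in control lungs. These groups overlapped, with a log2 fold change of -0.01 (SE 0.07, 95% interval -0.18 to 0.15, limma adjusted p = 0.891). Kel, which can process an endothelin precursor, had 0.07 (limma adjusted p = 0.335).

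**Figure D4:**
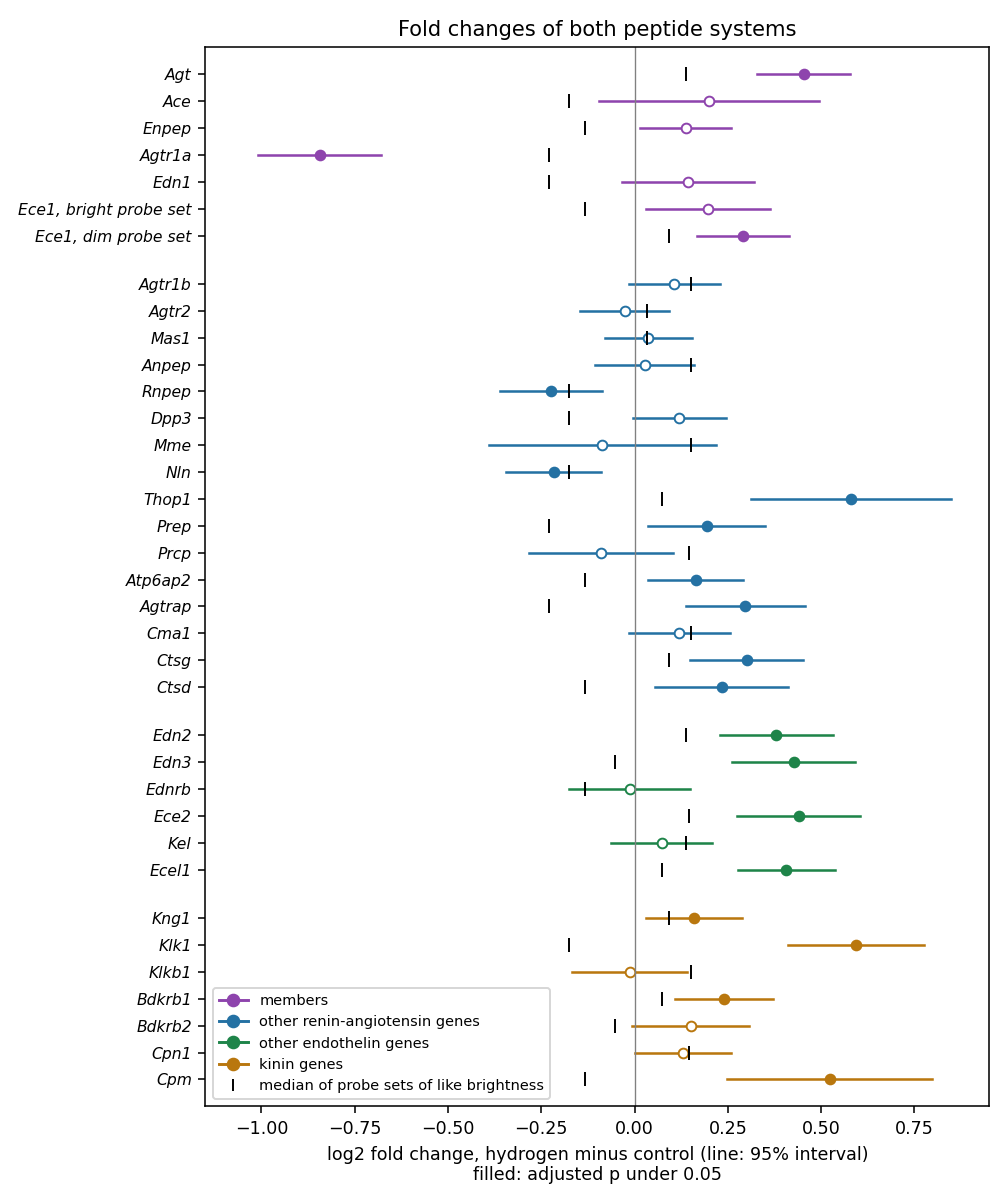
Points are log2 fold changes, hydrogen minus control, with unadjusted 95% intervals as lines, and filled points have an adjusted p under 0.05. The first group of rows holds the 7 probe sets of the set, followed by the other renin-angiotensin, other endothelin and kinin genes by their brightest probe set, and black ticks mark the median of probe sets of like brightness. Agtr1a stands alone at -0.84, and the other significant changes lie between -0.22 and 0.59.

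Kinins are cut by Ace and by carboxypeptidases. Of 7 kinin genes measured, 4 were higher and none lower (median log2 fold change 0.16), and 2 were higher after cyclic loess. Over all genes 25.5% were higher, and in the brightness classes of these 4 genes 5.28% to 35.4% of probe sets were. Cpm, a membrane carboxypeptidase of alveolar epithelium that trims kinins, measured 8.84, 8.77 and 8.50 in hydrogen lungs, against 8.09, 8.03 and 8.42 in control lungs. It rose by 0.52 (SE 0.12, limma adjusted p = 0.00844), and its second probe set rose by 0.48. The bradykinin B1 receptor gene Bdkrb1 (0.24) and the kininogen gene Kng1 (0.16) rose, Kng1 at low signal, and neither passed after cyclic loess (limma adjusted p = 0.105 and 0.281). The brightest probe set of Bdkrb2, the B2 receptor gene, did not pass (0.15, limma adjusted p = 0.101). A dim Bdkrb2 probe set rose by 0.36 (limma adjusted p = 0.00252), and the mean of its probe sets passed (0.255, limma adjusted p = 0.00573). The brightest Klk1 probe set, whose name marks possible cross-hybridisation, had 0.59. A dim one with the same mark had 0.04 and a dim one without it had 0.01, so Klk1 is uncertain.

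Agtr1a and the endothelin receptors signal through Gq and related G proteins, and genes of this machinery moved in both directions. Of 18 measured, 3 were higher and 9 lower (median log2 fold change -0.21). Over all genes 25.9% were lower, but all 18 were brighter than the median probe set, and in the 3 brightest classes 40.9% to 53.5% of probe sets were lower, so this count is near that share. After cyclic loess 2 were higher and 4 lower, with a median of -0.05. The largest changes were in regulators of G protein signalling, which speed the shutdown of G proteins. Rgs2 measured 9.43, 9.42 and 9.29 in hydrogen lungs, against 8.47, 8.40 and 7.94 in control lungs. It rose by 1.11 (SE 0.13, limma adjusted p = 0.000548), and its 2 further probe sets rose too.

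Rgs5, a regulator abundant in pericytes and vascular smooth muscle, measured 6.19, 5.78 and 5.72 in hydrogen lungs, against 6.81, 7.23 and 7.02 in control lungs. It fell by 1.12 (SE 0.14, limma adjusted p = 0.000709), while its 3 dimmer probe sets, from -0.07 to 0.26, did not pass. Rgs4 fell by 0.44, a call that ended with the mean of its probe sets (-0.10). Of the phospholipase C genes that Gq activates, Plcb1 rose (0.49, limma adjusted p = 0.000818, with all 4 of its probe sets higher) and Plcb2 rose (0.41), while Plcb4 (-0.48) and Plcb3 (-0.24) fell. After cyclic loess neither Plcb3 (-0.04, limma adjusted p = 0.632) nor Plcb2 (0.30, limma adjusted p = 0.0549) passed, and Plcb2 also missed without hydrogen replicate 1, control replicate 1 or control replicate 2 (0.36, 0.36 and 0.33). The receptor kinase gene Grk5 fell (-0.44), and it did not pass after cyclic loess (limma adjusted p = 0.0837). The brightest probe sets of the Gq subunit genes, Gnaq (-0.08) and Gna11 (-0.12), did not pass, and both passed when arrays were centred on their medians (-0.17 and -0.21). Of the other Gnaq probe sets, those at -0.31, -0.25 and -0.23 fell and a dim one at 0.24 rose.

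Agtr1a is known from vascular smooth muscle, pericytes and fibroblasts, and the markers of these cells had negative medians. Of 7 smooth muscle markers measured 5 fell and none rose (median log2 fold change -0.34), with summed signals of 2447 to 2994 in hydrogen lungs and 3132 to 3322 in control lungs. Over all genes 25.9% were lower, and in the 3 brightest classes, which held 5 of these 7, 40.9% to 53.5% of probe sets were. With the arrays quantile normalised again 2 of the markers fell (median -0.23). Myh11, the smooth muscle myosin gene, fell by 0.71 (limma adjusted p = 0.000305), while Acta2 had -0.30 (limma adjusted p = 0.0726) and Mylk had 0.01 (limma adjusted p = 0.93). A second Mylk probe set of nearly the same brightness fell by 0.23 (limma adjusted p = 0.0249), and a dim one had -0.02 (limma adjusted p = 0.862). Dimmer second probe sets of Myh11 (0.25) and of Des (0.20) rose, opposite to the brightest ones. Of 8 fibroblast markers 4 fell and 1 rose (median -0.26), with sums of 4435 to 4921 in hydrogen lungs and 5122 to 5389 in control lungs. By cyclic loess 5 of them fell and 1 rose (median -0.26). In classes 7 to 10, which held most of these 8, 31.7% to 53.5% of probe sets were lower. Of the 3 brightest fibroblast markers, the matrix proteoglycan gene Dcn fell by 0.76, the matrix protein gene Npnt rose by 0.19 (limma adjusted p = 0.0202) and the collagen gene Col3a1 had -0.17 (limma adjusted p = 0.154). A second Npnt probe set rose by 0.39, and the mean of all its probe sets did not pass (0.06).

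Of 6 pericyte markers 2 fell and 1 rose (median -0.23), and by cyclic loess 1 fell (median -0.05). Their sums were 718 to 772 in hydrogen lungs and 848 to 900.5 in control lungs. Over all genes 25.9% were lower and 25.5% higher. In the 3 brightest classes, which held most of these 6, 40.9% to 53.5% of probe sets were lower, with class medians of -0.13 to -0.23. The 3 brightest markers were the receptor genes Notch3 (-0.21) and Pdgfrb (-0.08, limma adjusted p = 0.491) and Higd1b (-0.25, limma adjusted p = 0.0541). They had smaller fold changes than Agtr1a, a difference that was not tested. The call of Notch3 ended after cyclic loess (limma adjusted p = 0.69), while Higd1b passed under some alternatives, as with arrays centred on their medians (-0.34, limma adjusted p = 0.0187). Trpc6, a cation channel gene, fell by 0.81 (limma adjusted p = 0.00162) and Cox4i2, a respiratory chain subunit gene, rose by 0.52 (limma adjusted p = 0.00105), both named here after their values were seen. No marker of these 3 lists was at 0, since the scale has none, and 1 pericyte and 1 fibroblast marker were dimmer than the median probe set. The part of these cells in the fall of Agtr1a was not tested.

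Endothelial markers, which bear on Ace, Ece1 and Edn1, had a median near 0. Of 10 measured 3 fell and none rose (median -0.01), and by cyclic loess 1 fell (median 0.12). Their sums were 11815 to 13603 in hydrogen lungs and 13806 to 14133 in control lungs. Over all genes 25.9% were lower, and in the 3 brightest classes, which held all 10 markers, 40.9% to 53.5% of probe sets were. Ramp2 fell by 0.21, while Tek (-0.12) and Cldn5 (-0.01) did not pass. Of 8 leukocyte markers 2 rose and none fell (median 0.12), with sums of 2208 to 2427 in hydrogen lungs and 1765 to 2008 in control lungs, and Ptprc, the common leukocyte antigen gene, rose by 0.45. Over all genes 25.5% were higher on the deposited values, and by cyclic loess 4 of the leukocyte markers rose. The part of either in the differences of Ace, Ece1 and Edn1 was not tested.

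Markers of heart muscle differed most by their median. All 9 measured fell (median log2 fold change -1.91), or 5 when the prior was trended and robust, with sums of 853 to 3684 in hydrogen lungs and 7274 to 8966 in control lungs, and hydrogen replicate 2 was the lowest. That array also had the lowest Agtr1a value, 6.57. Without it Agtr1a had a log2 fold change of -0.79 (limma adjusted p = 0.00149), against -0.84 with all arrays. The cardiac list then had a median of -1.34. Of 5 adipocyte markers 1 fell and 1 rose (median -0.27), with sums of 174 to 1220 in hydrogen lungs and 1142 to 1389 in control lungs. None of them passed in either direction without hydrogen replicate 2, nor without control replicate 1, 2 or 3. Without hydrogen replicate 1, 3 fell and none rose, and without hydrogen replicate 3, 1 rose and none fell. Over all genes 25.5% were higher and 25.9% lower. For adipocyte markers the list median of hydrogen replicate 1 lay 0.13 above the control mean, and that of hydrogen replicates 2 and 3 lay 0.47 below it. The part of heart muscle or of fat in the fall of Agtr1a was not tested.

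Markers of airway and alveolar type 1 epithelium had negative medians as well. Of 10 airway secretory and ciliated markers 7 fell and none rose (median log2 fold change -0.49), with sums of 18250 to 22227 in hydrogen lungs and 26566 to 28303 in control lungs. Over all genes 25.9% were lower, and 13.4% to 53.5% of probe sets in classes 5 to 10, where these 10 lay. Without control replicate 1 or 2, 4 of the 10 fell. Among the brightest, the secretoglobin gene Scgb3a2 fell by 0.26, while Scgb1a1 had 0.01 and Cyp2f2 had -0.13 (limma adjusted p = 0.0921). Scgb1a1 was the brightest of all probe sets, at a mean of 13.22, and whether a change can show at that signal was not tested. Bpifa1, an airway secretory gene named here after its values were seen, measured 10.65, 4.01 and 7.88 in hydrogen lungs, against 12.07, 11.82 and 11.96 in control lungs. Hydrogen replicate 2 was the lowest for Bpifa1, as it was for the cardiac sum. Of 6 alveolar type 1 markers 4 fell and none rose (median -0.16), and by cyclic loess 2 fell and 1 rose. All 6 lay in the brightest class, where 40.9% of probe sets were lower and the median was -0.13, so their median is near that of the class. The part of these cells in the fall of Agtr1a was not tested.

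**Figure D5:**
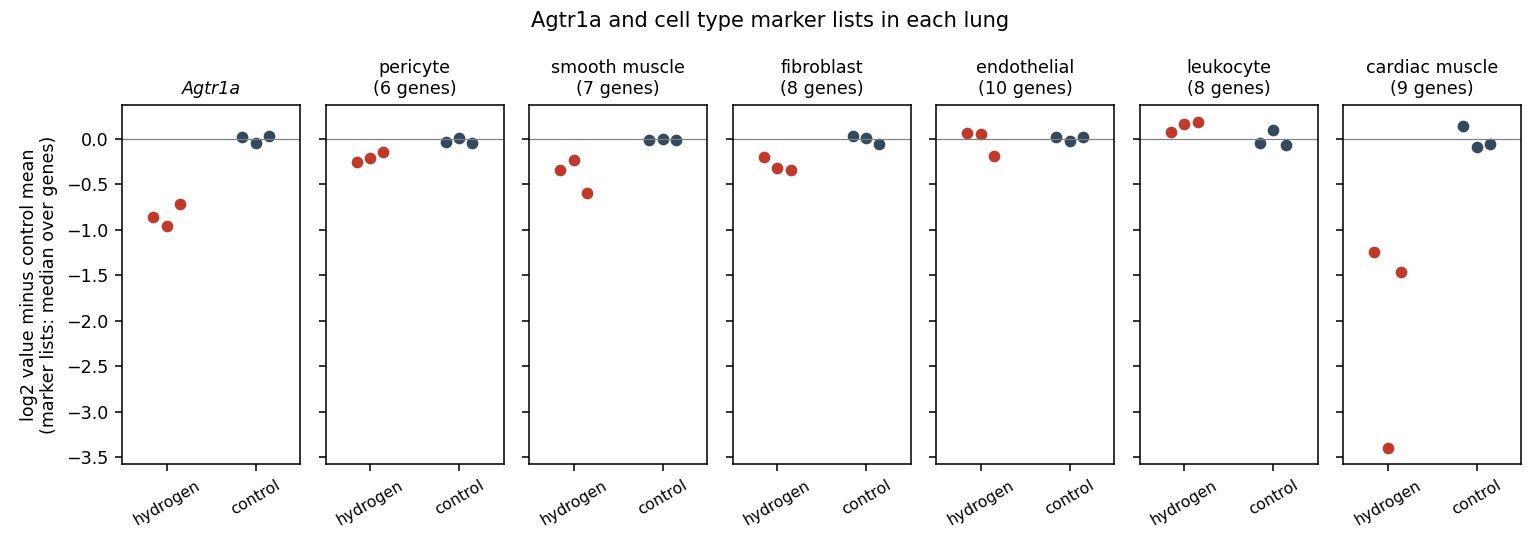
Each point is 1 array, as log2 value minus the control mean, for Agtr1a and for the median over the genes of 6 marker lists. All hydrogen points of Agtr1a, pericyte, smooth muscle, fibroblast and cardiac muscle markers lie below the control points. Hydrogen replicate 2 is the lowest array for cardiac muscle and, by a smaller distance, for Agtr1a.

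The genes whose pattern over the 6 arrays was most like that of Agtr1a were Dbr1, which encodes the enzyme that opens intron lariats, and Acot13, a thioesterase gene. Their root mean square difference from Agtr1a, after each gene was centred on its own mean, was 0.05 log2 units each, and 66 of 15413 genes lay within 0.1. For Agt the closest were Asic4 and Fbxw19, at 0.02 each, with 1205 genes within 0.1. All of these genes share a step between the hydrogen and the control arrays.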

How the data were processed

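Per the labels' protocols, lung RNA of 6 mice was labelled with biotin and read on MG-430 PM Array Strips, 1 array per mouse. The deposited table holds log2 values to 2 decimals, and RMA and Affymetrix Expression Console are the tools in the submitters' processing notes. The sources used here do not give their versions or say whether the arrays were normalised together. Scanner files were not used here. The number of arrays limits precision.

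Of the probe sets, 104 control probe sets by name were left out and 45037 were fitted with limma 3.58.1 (lmFit, eBayes without trend) in R 4.3.3, hydrogen against control, with Benjamini-Hochberg adjustment over all of them and a threshold of 0.05. Intervals are unadjusted. A gene stands for its brightest probe set. By the platform annotation 28898 probe sets had 1 gene name, 551 had several and 15588 had none. The 6 genes with a probe set matched RefSeq by Entrez identifier. Brightness classes are 10 equal groups of probe sets by the mean over the arrays. Summed signals add antilogs over a list's brightest probe sets. The members, lists and tests were chosen with earlier results of these data known. List genes could be named freely by role, markers by the 3 brightest of a list and Trpc6, Cox4i2, Des and Bpifa1 besides, and 2 genes of like pattern for Agt and Agtr1a, the members past the threshold by their brightest probe set (clone-type symbols left out). The fit was tested on simulated data. Plots used Python 3.11.15 and matplotlib 3.10.9. Mice are the replicates, as the design counts them. The alternatives were a replicate block, quantile normalisation, cyclic loess, median centring, array weights, a trended robust prior, a filter on dim probe sets, 1 row per gene (brightest or mean) and leaving out each array.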

Additional observations from a re-analysis of the deposited data

How the results depend on the processing

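The call of Agtr1a held under all 15 alternatives (log2 fold changes -0.93 to -0.63) and that of Agt under all 14 that gave it a value. Without dim probe sets Agt and the dim Ece1 probe set were not tested, so 0 of 5 probe sets of the set were higher (limma), where 2 had an unadjusted p under 0.05 (Enpep 0.0316 and the bright Ece1 0.0249 on all probe sets). The number higher was 6 after renewed quantile normalisation, 5 after cyclic loess, 4 with a trended robust prior and 2 to 4 on leaving out single arrays. After renewed quantile normalisation Ace had 0.385, Ece1 0.34, Edn1 0.37 and Enpep 0.22, after cyclic loess Ece1 had 0.34, Edn1 0.34 and Enpep 0.23, and all of these passed. The bright Ece1 probe set also passed with array weights (0.22), a trended robust prior (0.20) and 1 row per gene (0.20 by the brightest, 0.24 by the mean), and Enpep with a trended robust prior (0.14) and the mean per gene (0.14). The causes were not tested. Leaving out each array in turn gave 0.0883 to 0.37 for Ace, 0.06 to 0.19 for Edn1, 0.12 to 0.16 for Enpep and 0.15 to 0.27 for the bright Ece1 probe set, and Ace and Ece1 passed without control replicate 3. All probe sets past the threshold numbered 21213, with 12066 without dim probe sets, 8970 and 8938 with 1 row per gene (brightest and mean), where fewer rows were tested, and 15923 to 19705 without single arrays. With the mean of all probe sets Abca3 had -0.10, Akap5 -0.22 and Itpr2 0.0227, opposite to their brightest probe sets. Deviations of same-numbered arrays from their group means correlated at 0.08, 0.03 and -0.11, and those of differently numbered arrays at -0.14 to 0.11. The labels give no pairing of the mice, and 3 arrays per group are too few to exclude one. A replicate block left the fold changes as they were, with 19777 probe sets past the threshold and no call of the set changed (Agtr1a limma adjusted p = 0.00149). Low signal limits Agt and the dim Ece1 probe set.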
